A study of Mus musculus with 36 samples.

Results

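Left ventricles of mice with a constricted aorta were compared between 2 times of day 12 h apart, ZT11 and ZT23. The comparison used 6 of the 36 arrays of the series, namely those whose titles name TAC (transverse aortic constriction) at ZT11 (3 mice) or TAC at ZT23 (3 mice). In TAC surgery a band narrows the aortic arch, so that the left ventricle pumps against a raised pressure. Control mice had SHAM surgery, here taken as the same operation without the constriction. All mice lived for 8 weeks after surgery and were then killed at 1 of 6 times over 24 h (ZT03, ZT07, ZT11, ZT15, ZT19 and ZT23). ZT, or zeitgeber time, counts hours from the daily light signal, so that in the usual schedule ZT11 lies near the end of the light phase and ZT23 near the end of the dark phase, when mice are active. The labels used here give no light schedule, strain, genotype, sex or age. The 3 arrays of a group are from separate mice.

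Most cells of the heart hold a circadian clock, a loop in which the proteins CLOCK and BMAL1 (the product of Arntl) switch on the genes of their own repressors, the PER, CRY and REV-ERB proteins. The same loop drives the output factors DBP, TEF and HLF, which bind D-box sequences in further genes. In the heart the clock is known to time metabolism, ion channels and growth signals, while a lasting pressure load brings on hypertrophy, re-expression of fetal genes and deposition of matrix.

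The measurements were log-scale values of an Affymetrix mouse array, taken here as log2, for 12393 genes. The deposited values had been set to a median of 0 for every probe set over the 18 TAC arrays, and separately over the 18 SHAM arrays. Each value therefore states how far a heart lay above or below the typical TAC heart, and whether a gene or a heart marker was present at all could not be read. The median value of an array ranged from -0.0206 to 0.00889 over the 6 arrays, and no 2 arrays were identical. One array stood apart: TAC ZT23 replicate 1 carried transcripts of airway epithelium. Its 11 measured airway markers averaged 1.85, against -0.059 to 0.13 on the other 5 arrays, with Scgb1a1, the club cell secretoglobin, at 5.18. Among the other TAC arrays the airway mean reached 1.39, on ZT03 replicate 3. Of the 3 ZT23 arrays, TAC ZT23 replicate 1 also lay closest to the ZT11 mean in 14 of the 21 clock genes measured. Among called genes outside the clock lists it did so in 11 of 29, and the share over all genes was not counted. Results are given with and without this array where it matters.

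Between ZT11 and ZT23 the TAC left ventricle changed in 8 clock genes, among them Dbp, Nr1d2 and Arntl, and in 29 others. The latter include Cldn5, Slc38a2, Xirp1 and Lmcd1, which rose, and the atrial muscle genes Myl7 and Sln, which fell. Of 12393 genes tested, 37 (0.299%) passed an adjusted p of 0.05 in limma with the spread of the 18 TAC arrays, 25 higher at ZT23 (0.202%) and 12 lower (0.0968%). Their differences ranged from 0.27 to 2.27 in size on the log2 scale, and 16 reached a fold of 1.5. The 3 ZT11 arrays did not overlap the 3 ZT23 arrays in any of the 37, a property that 1964 of all genes (15.8%) shared, 891 higher (7.19%) and 1073 lower (8.66%). An unadjusted p under 0.05 was found for 1414 genes (11.4%), 711 higher (5.74%) and 703 lower (5.67%).

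The number of calls rested on single arrays. Leaving out TAC ZT11 replicate 1, 2 or 3 left 42, 30 or 14 calls, and leaving out TAC ZT23 replicate 1, 2 or 3 left 56, 27 or 20. Of the 37 genes, 12 passed in all 6 of these fits: Adh1, Arntl, Cldn5, Dbp, Gfpt2, Hlf, Lmcd1, Mmp14, Nr1d2, Pdzrn3, Per2 and Tef. The other 25 lost their call in at least 1 of them, with an adjusted p of up to 0.208, for Tnfaip1. Without the array that carried airway transcripts (TAC ZT23 replicate 1), 27 of the 37 kept their call and 29 further genes passed. No gene passed when the mean of the atrial markers, which also differed between the times, was added to the model. All 37 kept their sign there, and 30 had an unadjusted p under 0.05 (1230 of all genes did).

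Of the activator arm of the clock, Arntl rose by ZT23. Arntl, whose product BMAL1 pairs with CLOCK, read -0.30, -0.29 and -0.34 at ZT11 and 0.23, 0.50 and 0.77 at ZT23. All 3 hearts at ZT23 were above all 3 at ZT11, whose values lay within a narrow band. The rise was 0.81 ± 0.11 (SE, adjusted p = 0.00268), a 1.75-fold difference. Clock itself read -0.15, -0.16 and -0.23 at ZT11 and 0.092, 0.12 and 0.36 at ZT23, again without overlap. Its difference of 0.37 ± 0.081 (SE, adjusted p = 0.0603) missed the threshold, as did that of 0.22 ± 0.064 (SE, adjusted p = 0.205) for Npas2, which encodes an alternative partner of BMAL1. Without the array with airway transcripts both passed, with differences of 0.42 for Clock (adjusted p = 0.0499) and 0.30 for Npas2 (adjusted p = 0.0428). Rora, the activator of Arntl that competes with the REV-ERB proteins, differed by -0.11 ± 0.062 (SE, adjusted p = 0.479). Of the 4 measured activators, 1 passed the adjusted test and 3 had an unadjusted p under 0.05, against 0.299% and 11.4% of all genes. Their median difference was 0.30 against -0.0151 over all genes.

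Among repressors and output factors of the clock, 7 genes fell by ZT23. The widest gap was that of Dbp, which encodes an activator at D-box sequences, with 1.39, 0.61 and 1.23 at ZT11 and -0.96, -1.02 and -1.34 at ZT23. Every ZT11 heart was above the TAC median and every ZT23 heart far below it. Dbp fell by 2.19 ± 0.27 (SE, adjusted p = 0.00186), which is 4.55-fold. The related factors followed: Hlf read 0.43, 0.10 and 0.15 at ZT11 and -0.58, -0.38 and -0.40 at ZT23 and fell by 0.68 ± 0.11 (SE, adjusted p = 0.0104). For Tef the values were 0.31, 0.14 and 0.23 at ZT11 and -0.35, -0.29 and -0.37 at ZT23, and the fall was 0.56 ± 0.085 (SE, adjusted p = 0.00811). In both genes the groups were well apart, and TAC ZT11 replicate 1 was the highest of the 6.

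Nr1d2 encodes REV-ERB beta, which represses Arntl, and read 0.58, 0.11 and 0.47 at ZT11 and -0.54, -0.70 and -1.10 at ZT23. It fell by 1.16 ± 0.16 (SE, adjusted p = 0.004), or 2.24-fold, the widest difference among the clock genes after Dbp. Its paralogue Nr1d1 read 0.10, 0.12 and 0.23 at ZT11 and -0.10, -0.28 and -0.29 at ZT23. Those groups did not overlap either, but the difference of -0.37 ± 0.13 (SE, adjusted p = 0.29) was not called. Per2, a repressor of CLOCK and BMAL1, varied little within a group, with 0.29, 0.22 and 0.22 at ZT11 and -0.31, -0.27 and -0.27 at ZT23. The fall of 0.53 ± 0.081 (SE, adjusted p = 0.00811) passed with any of the 6 arrays left out. Per3 read 0.14, 0.14 and 0.13 at ZT11 and -0.23, -0.33 and -0.36 at ZT23, and fell by 0.45 ± 0.077 (SE, adjusted p = 0.0162).

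Per1, which responds to glucocorticoids as well as to the clock, read 0.49, 0.31 and 0.46 at ZT11 and 0.095, -0.32 and -0.57 at ZT23. Its ZT23 hearts were spread over 0.67 log2 units, and the difference of -0.68 ± 0.19 (SE, adjusted p = 0.174) missed the threshold. Cry2 differed by -0.33 ± 0.082 (SE, adjusted p = 0.108) and Cry1 by 0.11 ± 0.079 (SE, adjusted p = 0.592). Wee1, a kinase that holds back cell division and a direct clock target, read 0.31, 0.13 and 0.22 at ZT11 and -0.11, -0.24 and -0.30 at ZT23 and fell by 0.44 ± 0.089 (SE, adjusted p = 0.0488). Nfil3, a repressor that opposes DBP at D-box sequences, lay the other way from Dbp with -0.28, -0.24 and -0.56 at ZT11 and 0.16, 0.53 and 1.06 at ZT23. Its difference of 0.94 ± 0.21 (SE, adjusted p = 0.0628) was not called, and without TAC ZT23 replicate 1 it was 1.16 (adjusted p = 0.0216).

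Of 21 measured clock genes, 8 were called, against 0.299% of all genes. Of these 8, 1 was higher (Arntl) and 7 were lower (Dbp, Nr1d2, Hlf, Tef, Per2, Per3 and Wee1). The median difference was -0.35 over the 10 repressors and -0.58 over the 7 output genes. All 7 output genes had an unadjusted p under 0.05, against 11.4% of all genes. In 17 of the 21 the 3 and 3 arrays did not overlap, against 15.8% of all genes. Without TAC ZT23 replicate 1 the count of called clock genes was 13, the 5 additions being Clock, Npas2, Nfil3, Tspan4 and Tsc22d3. The directions of the 8 called genes are those known for a mouse tissue clock at these times, so they did not go against the time labels of the 6 arrays. Bhlhe40, a repressor that was not called, differed by 0.28 ± 0.088 (SE, adjusted p = 0.243), the reverse of its direction in SHAM hearts, and is described below.

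**Figure D1:**
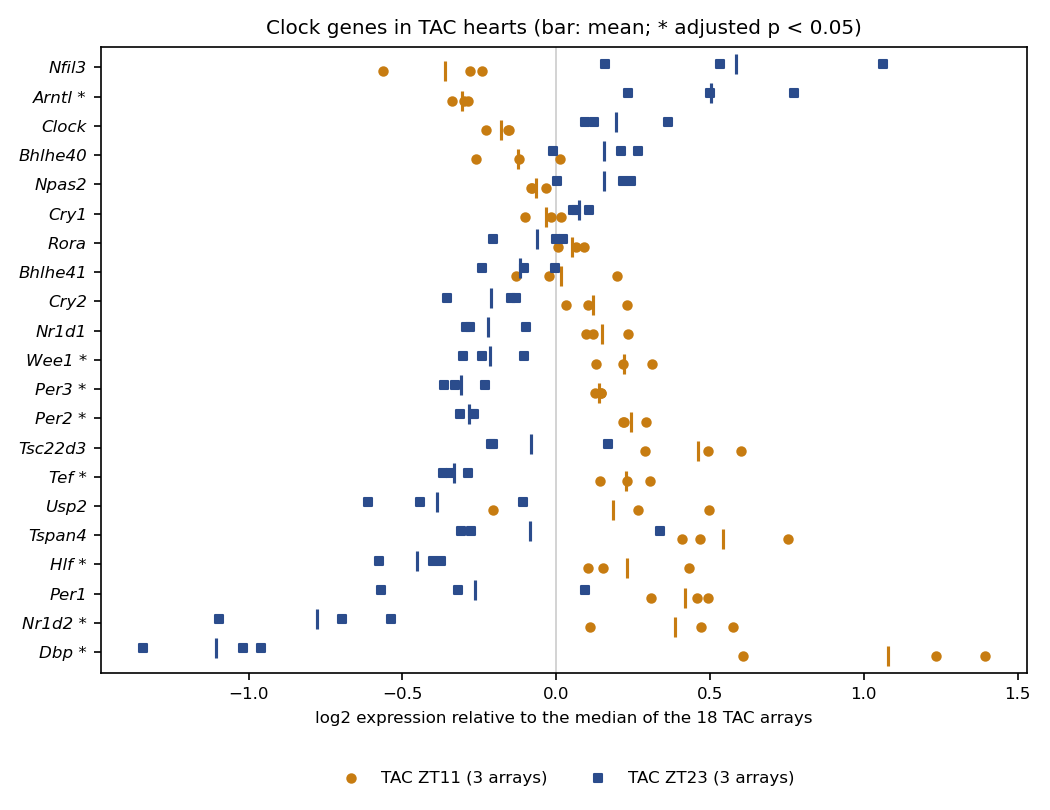
Log2 expression of 21 clock genes, relative to the median of the 18 TAC arrays, in each of 3 TAC hearts at ZT11 (circles) and 3 at ZT23 (squares); vertical bars are group means and asterisks mark an adjusted p under 0.05. Dbp and Nr1d2 lie far to the right at ZT11 and far to the left at ZT23, and Arntl and Nfil3 the reverse.

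The upstream sequence of 2 called clock genes is shown because it holds the elements through which this loop is known to act. Sequences are the 250 bases before the RefSeq transcription start, build GRCm38.p6, in the direction of the gene, with the motif in capitals. Per3 holds the D-box 2 times, and Tef holds an E-box, the site of CLOCK and BMAL1.
Per3, chr4:151044666-151044915, strand -: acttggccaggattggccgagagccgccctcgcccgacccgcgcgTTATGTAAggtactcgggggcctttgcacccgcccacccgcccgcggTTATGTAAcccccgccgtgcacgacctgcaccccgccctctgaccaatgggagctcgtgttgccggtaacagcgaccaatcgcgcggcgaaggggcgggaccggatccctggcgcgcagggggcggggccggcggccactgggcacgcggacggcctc
Tef, chr15:81811164-81811413, strand +: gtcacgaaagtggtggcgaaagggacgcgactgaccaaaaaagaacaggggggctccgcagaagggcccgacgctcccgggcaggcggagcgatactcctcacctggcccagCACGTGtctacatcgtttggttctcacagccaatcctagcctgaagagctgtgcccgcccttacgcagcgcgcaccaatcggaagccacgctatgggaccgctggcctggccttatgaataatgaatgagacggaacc
A second listed start of Tef also had an E-box upstream. Of the 37 called genes, 29 matched the RefSeq table, with 37 promoters. The E-box CACGTG, read on both strands, was in 6 of these 37 (16.2%) and in 1978 of all 32851 promoters (6.02%). The genes were Adam19, Irs1, Slc41a3, Spsb3 and Tef. The D-box TTANGTAA was in 1 of them, that of Per3, and in 677 of all (2.06%). The REV-ERB and ROR element TAGGTCA was in 0 of the 37 and 734 of all (2.23%), and the palindromic glucocorticoid response element in 0 and 127 (0.387%). A match describes the letters in this window and shows no binding.

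Cldn5 and Elk3, outside the clock lists, are known from vascular endothelium. Cldn5 encodes claudin-5, the main tight junction protein of endothelium, and read -0.55, -0.68 and -0.51 at ZT11 and 0.51, 0.42 and 0.31 at ZT23. All 3 ZT11 hearts lay far below the TAC median and all 3 ZT23 hearts above it. The rise was 0.99 ± 0.12 (SE, adjusted p = 0.00186), a 1.99-fold difference, and it passed with any of the 6 arrays left out. Elk3 encodes an ETS-family factor active in vessels and read -0.36, -0.12 and -0.18 at ZT11 and 0.32, 0.29 and 0.23 at ZT23. It rose by 0.50 ± 0.10 (SE, adjusted p = 0.0331), with an adjusted p of 0.0801 without TAC ZT23 replicate 1.

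The endothelial markers as a whole had smaller differences. Of 12 measured, 0 were called and 2 had an unadjusted p under 0.05, both higher (16.7%, against 11.4% of all genes). Their median difference was 0.12 (0.058 to 0.17 with 1 array left out), and 0.082 without TAC ZT23 replicate 1. Their mean was -0.16, -0.021 and -0.0025 at ZT11 and 0.20, 0.021 and -0.046 at ZT23. The highest mean was on TAC ZT23 replicate 1, which carried airway transcripts, and TAC ZT23 replicate 3 lay inside the ZT11 range. Nos3, the endothelial nitric oxide synthase, read -0.26, -0.39 and -0.07 at ZT11 and 0.41, 0.079 and 0.17 at ZT23, highest on TAC ZT23 replicate 1. Its difference of 0.46 ± 0.094 (SE, adjusted p = 0.0519) was just outside the threshold. Tek, the angiopoietin receptor, differed by 0.35 ± 0.11 (SE, adjusted p = 0.247). In tissue RNA a change in the number of cells of a type and a change in RNA per cell cannot be told apart.

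The next genes are known from muscle, although none of the 12 general cardiomyocyte markers was called and the sarcomere list had 0 called higher and 1 lower (Myl7) of 20. Lmcd1 encodes a LIM-domain protein that acts with calcineurin in cardiac hypertrophy, and read -0.32, -0.11 and -0.22 at ZT11 and 0.53, 0.52 and 0.63 at ZT23. The 3 ZT23 hearts lay within 0.10 of each other and stood clear of every ZT11 heart. Lmcd1 rose by 0.78 ± 0.10 (SE, adjusted p = 0.00186), or 1.71-fold, and passed with any of the 6 arrays left out. Xirp1, whose product Xin binds actin at the intercalated disc, read -0.52, -0.46 and -0.34 at ZT11 and 0.38, 0.20 and 0.93 at ZT23. It rose by 0.94 ± 0.19 (SE, adjusted p = 0.0488), and the adjusted p was 0.0572 without TAC ZT23 replicate 1. Cavin4, a coat protein of cardiomyocyte caveolae, read -0.11, -0.19 and -0.35 at ZT11 and 0.11, 0.28 and 0.37 at ZT23 and rose by 0.47 ± 0.089 (SE, adjusted p = 0.0331).

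Pdzrn3, a ubiquitin ligase, read -0.14, 0.0078 and -0.0078 at ZT11 and 0.70, 0.59 and 0.48 at ZT23. The ZT11 hearts sat near the TAC median and the ZT23 hearts well above it, a rise of 0.64 ± 0.087 (SE, adjusted p = 0.00358). Palmd, which encodes palmdelphin, read -0.24, -0.31 and -0.27 at ZT11 and 0.40, 0.17 and 0.13 at ZT23 and rose by 0.51 ± 0.083 (SE, adjusted p = 0.0105). Slk, a kinase of the cytoskeleton, gave the smallest difference of the 37 genes. Its values were -0.019, -0.043 and -0.11 at ZT11 and 0.24, 0.22 and 0.20 at ZT23, without overlap, and it rose by 0.27 ± 0.047 (SE, adjusted p = 0.0152). Its 4 probe sets differed by 0.071 to 0.44, all in the same direction.

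Read by list, the Z-disc and intercalated disc genes were the set outside the clock with the most calls. Of 18 measured, 3 were called (Xirp1, Lmcd1 and Cavin4) and 17 differed upward. At an unadjusted p under 0.05, 8 were higher and 1 lower (50.0%, against 11.4% of all genes). Their median difference was 0.21, against -0.0151 for all genes. In SHAM hearts it was 0.0031, and the difference between the lists' medians was not tested. Actn2, the alpha-actinin of the Z-disc, read 0.007, -0.049 and -0.051 at ZT11 and 0.18, 0.18 and 0.20 at ZT23 and differed by 0.22 ± 0.064 (SE, adjusted p = 0.208). The member with the opposite sign was Tcap, which encodes titin-cap and is itself a clock-controlled gene, at -0.66 ± 0.19 (SE, adjusted p = 0.203). Of the 28 measured genes of the hypertrophy and fetal list, 1 was called higher (Xirp1) and 1 lower (Myl7), and the median was 0.15. The natriuretic peptide gene Nppb differed by 0.68 ± 0.25 (SE, adjusted p = 0.334), Nppa by 0.084 ± 0.17 (SE, adjusted p = 0.859) and Myh7, the fetal myosin heavy chain, by 0.85 ± 0.54 (SE, adjusted p = 0.548). Myh7 was spread over 1.49 units among the ZT11 hearts alone.

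Adam19 and Mmp14 encode membrane proteases. Adam19, a membrane metalloprotease, read -0.49, -0.26 and -0.28 at ZT11 and 0.15, 0.64 and 0.68 at ZT23. It rose by 0.83 ± 0.13 (SE, adjusted p = 0.0104), with replicate 1 the lowest of the ZT23 hearts. Mmp14, a membrane-bound matrix metalloproteinase that activates pro-MMP2, read -0.26, -0.019 and 0.027 at ZT11 and 0.52, 0.37 and 0.35 at ZT23 and rose by 0.49 ± 0.077 (SE, adjusted p = 0.00811). Scube2, a secreted protein, read -0.083, -0.38 and -0.44 at ZT11 and 0.15, 0.29 and 0.19 at ZT23 and rose by 0.51 ± 0.093 (SE, adjusted p = 0.0258). Gfpt2, the entry enzyme of the hexosamine pathway, read -0.11, 0.017 and -0.017 at ZT11 and 0.42, 0.35 and 0.26 at ZT23, a rise of 0.38 ± 0.059 (SE, adjusted p = 0.00811).

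The matrix genes themselves were not called, 0 of 35, and 2 had an unadjusted p under 0.05 (5.71%, against 11.4% of all genes). Col1a1, a fibrillar collagen, varied more between hearts of 1 time than between times and read -0.18, 0.45 and 0.87 at ZT11 and 0.82, 0.31 and 0.60 at ZT23, with TAC ZT11 replicate 1 low. Postn, made by activated fibroblasts, read -0.29, 1.44 and 1.41 at ZT11 and 1.44, 1.25 and 1.18 at ZT23 and was low on that same array alone. The median difference of the matrix list was 0.092 and ran from -0.10 to 0.26 as each of the 6 arrays was left out. Thbs1, a matricellular protein, read -0.29, 0.18 and 0.25 at ZT11 and 0.84, 0.49 and 1.01 at ZT23 and differed by 0.73 ± 0.19 (SE, adjusted p = 0.141).

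Slc38a2 and Slc2a1 encode nutrient transporters. Slc38a2, the SNAT2 transporter of neutral amino acids, read -0.45, -0.41 and -0.48 at ZT11 and 0.37, 0.47 and 0.73 at ZT23. Its ZT11 hearts lay within 0.067 of each other and below every ZT23 heart, a rise of 0.97 ± 0.18 (SE, adjusted p = 0.0236) or 1.96-fold. It was the 1 called member of 12 amino acid transporters, of which 8 differed downward, with a median of -0.037 (-0.086 to 0.028 with 1 array left out). Slc2a1, the GLUT1 glucose transporter, read 0.10, -0.10 and 0.055 at ZT11 and 0.52, 0.24 and 0.40 at ZT23. It rose by 0.37 ± 0.073 (SE, adjusted p = 0.0431), with 3 probe sets differing by 0.30 to 0.44. Without TAC ZT23 replicate 1, its highest array, the difference was 0.30 (adjusted p = 0.121).

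Irs1, the adaptor of the insulin receptor, read -0.40, -0.27 and -0.55 at ZT11 and 0.25, 0.24 and 0.21 at ZT23. The 3 ZT23 hearts lay within 0.042 of each other, all were above the ZT11 hearts, and the rise was 0.64 ± 0.10 (SE, adjusted p = 0.0104). Slc41a3, a magnesium transporter, read -0.24, -0.29 and -0.22 at ZT11 and 0.22, 0.23 and 0.14 at ZT23 and rose by 0.45 ± 0.091 (SE, adjusted p = 0.0488), with an adjusted p of 0.106 without TAC ZT23 replicate 1. Irs2, the sister adaptor, differed by 0.22 ± 0.12 (SE, adjusted p = 0.478). The upstream sequences of Irs1 and Adam19 are given because they are the called genes outside the clock lists, with the widest rises, that held an E-box in this window, in capitals.
Irs1, chr1:82291440-82291689, strand -: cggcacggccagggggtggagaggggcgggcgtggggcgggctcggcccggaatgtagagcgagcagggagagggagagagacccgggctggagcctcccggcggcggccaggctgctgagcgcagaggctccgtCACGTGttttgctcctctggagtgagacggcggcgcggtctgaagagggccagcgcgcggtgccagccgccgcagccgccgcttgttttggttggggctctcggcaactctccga
Adam19, chr11:46054252-46054501, strand +: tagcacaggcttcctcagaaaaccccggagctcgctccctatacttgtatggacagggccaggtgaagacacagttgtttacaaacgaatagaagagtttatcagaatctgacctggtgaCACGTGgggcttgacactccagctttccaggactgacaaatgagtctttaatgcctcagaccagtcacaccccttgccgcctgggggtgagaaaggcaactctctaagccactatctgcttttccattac
The Slc41a3 and Spsb3 promoters held the same letters and are not printed.

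Glycolysis and glucose uptake had 1 called member of 23 (Slc2a1) and 8 with an unadjusted p under 0.05, all higher (34.8%, against 11.4% of all genes). The median difference was 0.11. Pgam1, a phosphoglycerate mutase, read -0.52, -0.42 and -0.04 at ZT11 and 0.11, 0.31 and 0.45 at ZT23 and differed by 0.62 ± 0.17 (SE, adjusted p = 0.174). Pfkp, the platelet-type phosphofructokinase, differed by 0.49 ± 0.18 (SE, adjusted p = 0.319), and Slc16a1, the lactate carrier MCT1, by 0.40 ± 0.094 (SE, adjusted p = 0.0894). Of the 23 hypoxia and angiogenesis genes 1 was called, again Slc2a1, and 8 (34.8%) had an unadjusted p under 0.05, all higher. Their median of 0.10 ran from 0.00058 to 0.14 as each array was left out. Vegfa, the endothelial growth factor, read -0.16, -0.51 and -0.24 at ZT11 and -0.25, 0.39 and 0.66 at ZT23. With TAC ZT23 replicate 1 inside the ZT11 range, the difference was 0.57 ± 0.16 (SE, adjusted p = 0.195), and without that array it was 0.83 (adjusted p = 0.00285).

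The remaining rises were small. Arhgap24, a Rac-directed GTPase-activating protein, rose by 0.38 ± 0.071 (SE, adjusted p = 0.0326) and Lrrfip1 by 0.35 ± 0.061 (SE, adjusted p = 0.0169). Tnfaip1, an adaptor of a cullin ubiquitin ligase, rose by 0.34 ± 0.069 (SE, adjusted p = 0.0491). Slc25a46, a protein of the mitochondrial outer membrane, rose by 0.33 ± 0.066 (SE, adjusted p = 0.0488), and the aminopeptidase gene Aopep by 0.31 ± 0.059 (SE, adjusted p = 0.0327). Spsb3, a SOCS-box protein, rose by 0.31 ± 0.061 (SE, adjusted p = 0.0412). Atp6v1b2, a subunit of the proton pump of lysosomes, rose by 0.30 ± 0.062 (SE, adjusted p = 0.0488). Without TAC ZT23 replicate 1 the adjusted p was 0.0737 for Arhgap24, 0.114 for Slc25a46, 0.0535 for Spsb3 and 0.128 for Atp6v1b2. Gfpt2, Lrrfip1, Tnfaip1, Slc25a46, Aopep, Spsb3 and Atp6v1b2 fell outside the rule for named genes and were named after their values were seen.

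**Figure D2:**
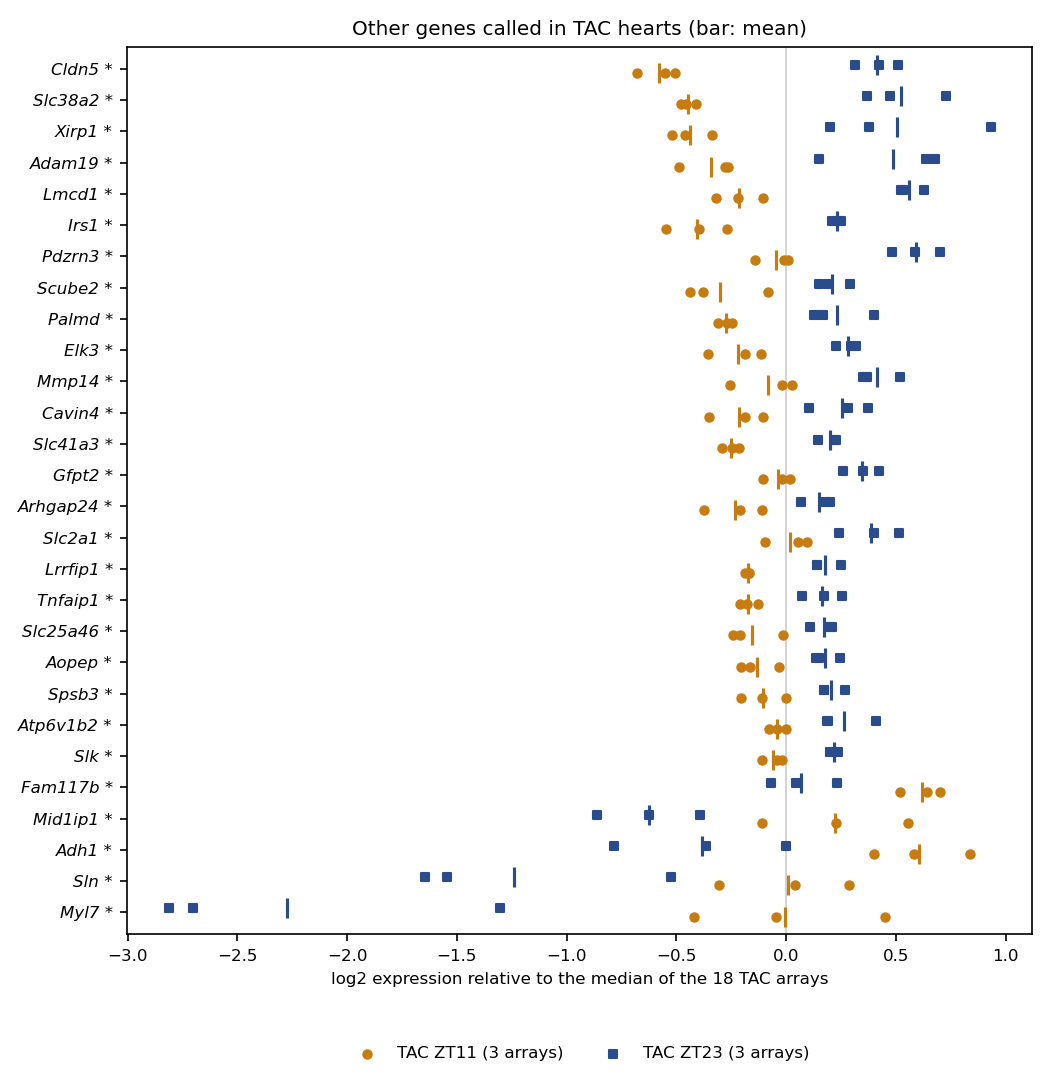
Of the 29 called genes outside the clock lists, 28 are drawn, as log2 expression relative to the median of the 18 TAC arrays, in 3 TAC hearts at ZT11 (circles) and 3 at ZT23 (squares), with vertical bars at the group means. No ZT11 heart overlaps a ZT23 heart in any row, Myl7 and Sln span the widest range, and Cldn5 heads the genes that rose.

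Lower at ZT23, outside the clock, were 5 genes. Adh1, an alcohol dehydrogenase that also oxidises retinol, read 0.84, 0.40 and 0.58 at ZT11 and -0.0025, -0.36 and -0.79 at ZT23. It fell by 0.99 ± 0.15 (SE, adjusted p = 0.00811), or 1.99-fold, with replicate 1 the nearest of the ZT23 hearts to the ZT11 hearts, and passed with any array left out. Fam117b read 0.64, 0.52 and 0.70 at ZT11 and 0.23, 0.047 and -0.068 at ZT23 and fell by 0.55 ± 0.089 (SE, adjusted p = 0.0104). Mid1ip1, an activator of acetyl-CoA carboxylase in fatty acid synthesis, read 0.55, -0.11 and 0.23 at ZT11 and -0.86, -0.39 and -0.62 at ZT23. It fell by 0.85 ± 0.17 (SE, adjusted p = 0.0488), and the adjusted p was 0.132 without TAC ZT23 replicate 1.

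The other 2 were genes of atrial muscle. Myl7 encodes the regulatory myosin light chain of the atrium and read 0.45, -0.42 and -0.044 at ZT11 and -1.30, -2.81 and -2.70 at ZT23. All 3 ZT23 hearts were far below the TAC median, replicates 2 and 3 most of all. Myl7 fell by 2.27 ± 0.39 (SE, adjusted p = 0.0162), or 4.82-fold, the widest difference of the 37. Sln, sarcolipin, an inhibitor of the calcium pump SERCA that the mouse atrium expresses, read 0.29, -0.31 and 0.041 at ZT11 and -0.52, -1.65 and -1.54 at ZT23 and fell by 1.24 ± 0.23 (SE, adjusted p = 0.0258).

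Other atrial markers lay in the same direction on the same arrays. Myl4, the atrial essential light chain, read 0.20, -0.30 and 0.0015 at ZT11 and -0.42, -1.52 and -1.41 at ZT23. Its difference of -1.08 ± 0.23 (SE, adjusted p = 0.0576) was not called with all arrays, and without TAC ZT23 replicate 1 it was -1.43 (adjusted p = 0.00205). Bmp10, a growth factor of the atrium, differed by -0.63 ± 0.13 (SE, adjusted p = 0.052) and Dkk3 by -0.68 ± 0.24 (SE, adjusted p = 0.317). Nppa, made by the atrium and by the loaded ventricle, differed by 0.084 ± 0.17 (SE, adjusted p = 0.859). Of 8 atrial markers measured, 2 were called lower, 5 had an unadjusted p under 0.05 and 7 differed downward, with a median of -0.66. Over all genes 0.0968% were called lower, 11.4% had an unadjusted p under 0.05 and 6950 of 12393 differed downward. The mean of the 8 was 0.18, -0.043 and 0.18 at ZT11 and -0.31, -0.83 and -0.83 at ZT23, against -0.30 to 0.49 on the other 12 TAC arrays. On the 18 SHAM arrays, which were centred separately, the same mean ran from -0.83 to 0.25. Single SHAM hearts thus also had low atrial values, among them SHAM ZT11 replicate 2 at -0.64. The amount of atrial tissue in each sample was not measured. Its part in the calls was not tested beyond the fit with this mean as a covariate, in which no gene was called. In that fit the difference of Myl7 went from -2.27 to -0.34 and that of Sln from -1.24 to -0.18, both being members of the mean. Cldn5 went from 0.99 to 1.15, Mmp14 from 0.49 to 0.48, Gfpt2 from 0.38 to 0.38, Slc2a1 from 0.37 to 0.55, Dbp from -2.19 to -1.44 and Adam19 from 0.83 to 0.30.

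**Figure D3:**
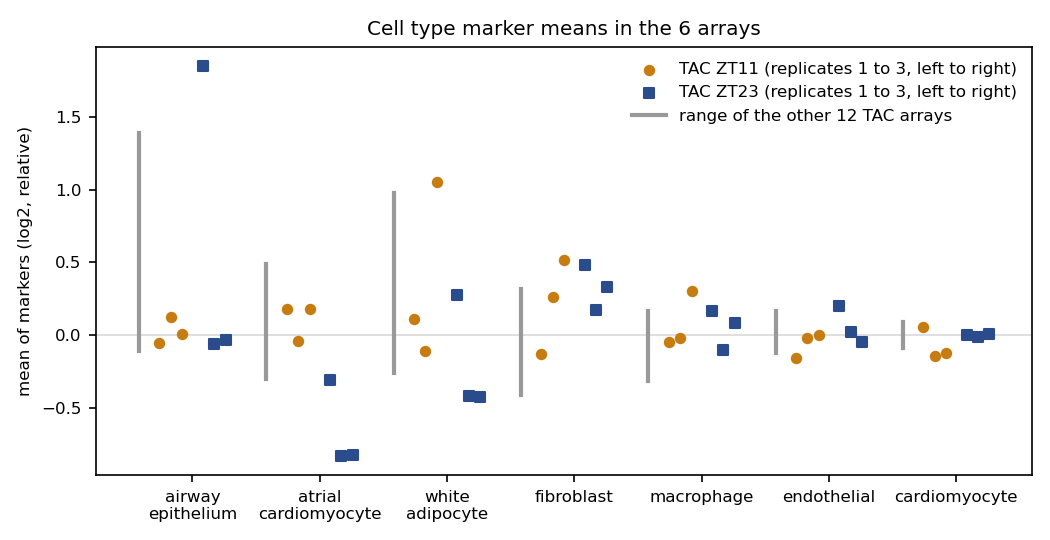
Mean log2 value of the markers of 7 cell types on each of the 6 arrays (circles, ZT11; squares, ZT23; replicates 1 to 3 from left to right), with grey lines for the range of the other 12 TAC arrays. Of the 6 arrays, TAC ZT23 replicate 1 alone is high in airway markers (1.85), atrial markers are low on all 3 ZT23 arrays, and white adipocyte markers are high on TAC ZT11 replicate 3 (1.05).

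Fat cell and fibroblast markers varied between arrays of the same time. The white adipocyte mean was 0.11, -0.11 and 1.05 at ZT11 and 0.28, -0.42 and -0.42 at ZT23, and its 6 markers had a median difference of -0.34 (-0.50 to -0.09 with 1 array left out) with 0 called. Adipoq, the adipokine adiponectin, read 0.26, -0.26 and 3.31 at ZT11 and 1.52, -1.54 and -1.36 at ZT23. Scd1, a desaturase of fat synthesis, read 0.11, -0.11 and 2.32 at ZT11 and 0.14, -0.70 and -0.51 at ZT23, highest on the same ZT11 array. The fibroblast mean was -0.13, 0.26 and 0.51 at ZT11 and 0.48, 0.17 and 0.33 at ZT23. The fit with the white adipocyte mean as a covariate left 30 calls. The fibroblast marker mean was not used as a covariate. A fit with the mean of the matrix list, a separate list of genes, left 40 calls. The part of these cell types in the calls was not tested further.

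Of 33 proteasome genes 32 differed upward, against 5443 of all 12393 genes. An unadjusted p under 0.05 was found for 11 of the 33 (33.3%, against 11.4% of all genes), and 0 were called. Their median was 0.16 (0.011 in SHAM) and ran from 0.059 to 0.22 as each array was left out. Psmd8, a subunit of the proteasome cap, read 0.041, -0.11 and 0.073 at ZT11 and 0.39, 0.28 and 0.19 at ZT23 and differed by 0.29 ± 0.10 (SE, adjusted p = 0.3). All 21 heat shock chaperones differed upward, 5 with an unadjusted p under 0.05 (23.8%), and the median was 0.15. Their mean was -0.051, -0.24 and -0.10 at ZT11 and -0.15, -0.042 and 0.34 at ZT23. TAC ZT23 replicate 1 thus lay inside the ZT11 range, and replicate 3 was the highest by far. In SHAM the chaperone median was 0.17, with 6 called higher, and with 12 higher and 1 lower at an unadjusted p under 0.05. Hsp90aa1, the inducible HSP90, read -0.31, -0.18 and -0.30 at ZT11 and -0.053, 0.18 and 0.64 at ZT23 and differed by 0.52 ± 0.17 (SE, adjusted p = 0.263). In SHAM Hsp90aa1 differed by 0.59 ± 0.087 (SE, adjusted p = 0.00126). The chaperone median in TAC ran from 0.029 to 0.26 as each array was left out.

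Genes of the mitochondrial ribosome had 40 of 42 differences above 0, as had 5443 of all 12393 genes. An unadjusted p under 0.05 was found for 7 (16.7%, against 11.4% of all genes), and 0 were called. Their median of 0.096 ran from 0.046 to 0.17 as each array was left out. Oxidative phosphorylation (52 genes), the tricarboxylic acid cycle (22) and fatty acid oxidation (21) each had 0 calls and medians of 0.072, 0.10 and 0.077. With 1 array left out these ran from 0.0092 to 0.15, from 0.024 to 0.18, and from -0.031 to 0.17, so that the sign for fatty acid oxidation was not kept. Of the 6 arrays, these 3 metabolic lists were lowest on TAC ZT11 replicate 2, whose fatty acid oxidation mean was -0.40 against 0.059 and -0.16 on the other ZT11 arrays. The proteasome, heat shock and mitochondrial ribosome means were lowest on that array too, at -0.22, -0.24 and -0.22. The proteasome mean on TAC ZT11 replicate 1, 0.057, lay inside the ZT23 range of 0.049 to 0.089. Immediate early genes had 0 calls of 24, with 7 higher and 2 lower at an unadjusted p under 0.05 (37.5%). Their median of 0.16 ran from 0.072 to 0.22 as each array was left out. Btg2, an antiproliferative member, read -0.12, -0.047 and -0.016 at ZT11 and 0.44, 0.41 and 0.94 at ZT23 and differed by 0.66 ± 0.14 (SE, adjusted p = 0.0564).

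Of 18 glucocorticoid targets measured, 0 were called, and 6 were lower and 1 higher at an unadjusted p under 0.05 (38.9%, against 11.4% of all genes). In all, 12 of the 18 differed downward, as did 6950 of all 12393 genes. The median was -0.24, ran from -0.38 to -0.13 as each array was left out, and was 0.28 with the atrial mean as a covariate, the opposite sign. Tsc22d3, the glucocorticoid-induced leucine zipper, read 0.49, 0.29 and 0.60 at ZT11 and 0.17, -0.20 and -0.21 at ZT23 and differed by -0.54 ± 0.12 (SE, adjusted p = 0.0695). Cebpb, a bZIP transcription factor, differed by -0.58 ± 0.16 (SE, adjusted p = 0.174) and Nfkbia, the inhibitor of NF-kappaB, by -0.39 ± 0.13 (SE, adjusted p = 0.263). Per1 and Tsc22d3 are in this list and among the clock genes as well. Klf15, a clock-linked factor of cardiac metabolism, read 0.59, -0.073 and 0.30 at ZT11 and 0.093, -0.39 and -0.76 at ZT23. Its difference was -0.62 ± 0.18 (SE, adjusted p = 0.208), and -0.85 without TAC ZT23 replicate 1 (adjusted p = 0.0403). With the atrial mean as a covariate the Klf15 difference was 0.073, the opposite sign.

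Over the 6 times of the TAC course, ZT23 and ZT11 were often, not always, the extremes. Of the 25 genes that rose, ZT23 had the highest mean in 19 and ZT19 in 5, and ZT11 had the lowest in 16. Of the 12 that fell, ZT11 had the highest mean in 7 and ZT07 in 2, and ZT23 the lowest in 11. Dbp, for example, stood at 1.43 ± 0.11 (SD, n = 3) at ZT07, above its 1.08 ± 0.42 at ZT11. Cldn5 moved from -0.58 ± 0.09 at ZT11 through 0.033 ± 0.23 at ZT15 and 0.11 ± 0.14 at ZT19 to 0.41 ± 0.10 at ZT23.

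The means of Xirp1 and Slc38a2 lay above the TAC median at ZT15 already, with a wide spread among the Xirp1 values. Xirp1 stood at -0.44 ± 0.092 at ZT11, 0.40 ± 0.42 at ZT15 and 0.50 ± 0.38 at ZT23, and Slc38a2 at -0.45 ± 0.034, 0.25 ± 0.22 and 0.52 ± 0.19. Slc2a1 had means between -0.12 and 0.063 at the other 5 times and 0.39 ± 0.14 at ZT23. Myl7 had its lowest mean at ZT23, at -2.27 ± 0.84 against 0.60 ± 0.49 at ZT19 and 0.052 ± 0.72 at ZT03. These are descriptions of means; other pairs of times were not tested.

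**Figure D4:**
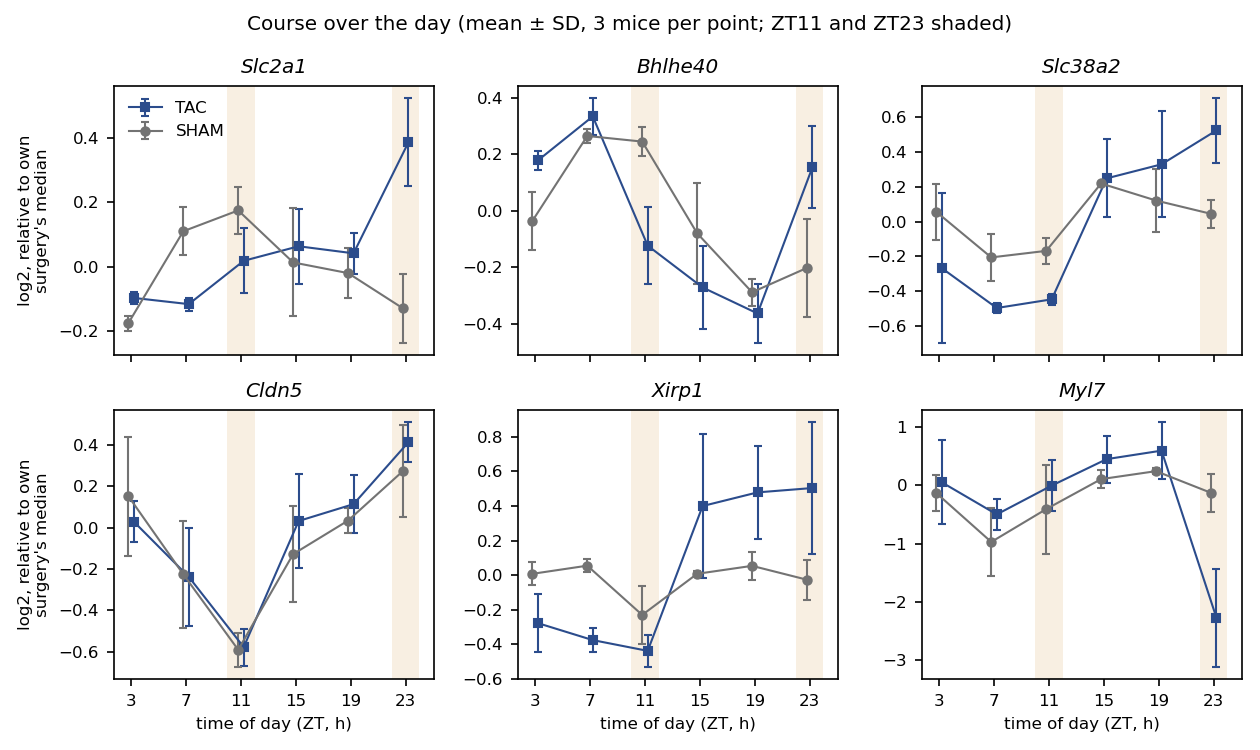
Mean ± SD of 3 mice at each of 6 times for Slc2a1, Bhlhe40, Slc38a2, Cldn5, Xirp1 and Myl7, in TAC (squares) and SHAM (circles), as log2 values relative to the median of the same surgery, with ZT11 and ZT23 shaded. Slc2a1 and Bhlhe40 differ in opposite directions between the shaded times in TAC and SHAM, Cldn5 in the same direction in both, and Myl7 is lowest at TAC ZT23.

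The same 2 times were compared in SHAM hearts to see which differences also stood without the constriction. In SHAM, 204 genes (1.65%) passed, 109 higher at ZT23 (0.88%) and 95 lower (0.767%), with the spread of the 18 SHAM arrays, and 1211 (9.77%) had an unadjusted p under 0.05, 697 higher (5.62%) and 514 lower (4.15%). The count was 118 without SHAM ZT23 replicate 2, 108 without SHAM ZT23 replicate 3, and 158 without SHAM ZT11 replicate 3. The second of these carried airway transcripts, with an airway marker mean of 1.10 and Scgb1a1 at 3.41, and the third carried thymocyte transcripts. The median residual SD of a gene was 0.0942 in TAC and 0.0772 in SHAM, so that the same difference is harder to call in TAC. Of the 37 TAC calls 22 were SHAM calls as well, which is 59.5% of the TAC list and 10.8% of the SHAM list, and 21 of the 22 had the same direction. The exception was Slc2a1. Of the 204 SHAM calls, 186 had the same sign in TAC. In 29 of the 37 the TAC difference was the larger, which the choice of genes by their TAC value favours.

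Clock genes differed in the same direction in both surgeries in 20 of 21 cases, the exception being Bhlhe40. In SHAM 17 of them were called. The TAC difference was the smaller in 13 of the 21, but no clock gene besides Bhlhe40 passed the test of the difference between surgeries. Dbp differed by -2.76 ± 0.15 (SE, adjusted p = 1.25e-08) in SHAM, Nr1d2 by -1.46 ± 0.11 (SE, adjusted p = 7.42e-07) and Arntl by 0.89 ± 0.069 (SE, adjusted p = 1.11e-06). Among the other shared calls were Cldn5, at 0.87 ± 0.15 (SE, adjusted p = 0.00443) in SHAM, Adam19 at 1.19 ± 0.095 (SE, adjusted p = 1.11e-06) and Irs1 at 0.83 ± 0.13 (SE, adjusted p = 0.0022).

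The difference between surgeries was itself tested over all 36 arrays, and 2 genes (0.0161%) passed, both with the more positive difference in TAC. An unadjusted p under 0.05 was found for 853 genes (6.88%). Slc2a1 read 0.12, 0.26 and 0.15 at ZT11 and -0.25, -0.10 and -0.043 at ZT23 in SHAM hearts, so all 3 SHAM hearts at ZT23 lay below all 3 at ZT11, the reverse of TAC. The SHAM difference was -0.30 ± 0.075 (SE, adjusted p = 0.0497), and TAC minus SHAM was 0.67 ± 0.11 (SE, adjusted p = 0.00786).

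Bhlhe40 encodes DEC1, a repressor that competes with CLOCK and BMAL1 at E-boxes, and is a target of hypoxia as well as of the clock. In TAC it read -0.26, -0.12 and 0.011 at ZT11 and 0.21, -0.011 and 0.26 at ZT23, with replicate 2 of ZT23 inside the ZT11 range, and its difference of 0.28 ± 0.088 (SE, adjusted p = 0.243) was not called. In SHAM it read 0.19, 0.28 and 0.27 at ZT11 and -0.068, -0.40 and -0.14 at ZT23 and fell, by 0.45 ± 0.085 (SE, adjusted p = 0.00988). TAC minus SHAM was 0.72 ± 0.13 (SE, adjusted p = 0.0209). The count of 2 fell to 0 with quantile normalization or without TAC ZT11 replicate 2, and to 1 without TAC ZT11 replicate 1 or SHAM ZT23 replicate 2. It rose to 7 without TAC ZT23 replicate 3 and to 5 without TAC ZT23 replicate 1.

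Further called genes had small unadjusted p values for the difference between surgeries and did not pass. Myl7 differed by 0.28 ± 0.31 (SE, adjusted p = 0.881) in SHAM, and TAC minus SHAM was -2.55 ± 0.53 (SE, adjusted p = 0.195). Its SHAM values were 0.0024, -1.29 and 0.065 at ZT11 and -0.23, -0.38 and 0.23 at ZT23, with 1 ZT11 heart far below the others. Sln differed by 0.19 ± 0.18 (SE, adjusted p = 0.845) in SHAM, and Slk by -0.12 ± 0.074 (SE, adjusted p = 0.667). Slc38a2, which rose by 0.97 in TAC, differed by 0.21 ± 0.09 (SE, adjusted p = 0.407) in SHAM, and Xirp1 by 0.20 ± 0.073 (SE, adjusted p = 0.259). For neither was the difference between surgeries called. Of the 37 genes, 13 had an unadjusted p under 0.05 in that test and 1 passed after adjustment.

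**Figure D5:**
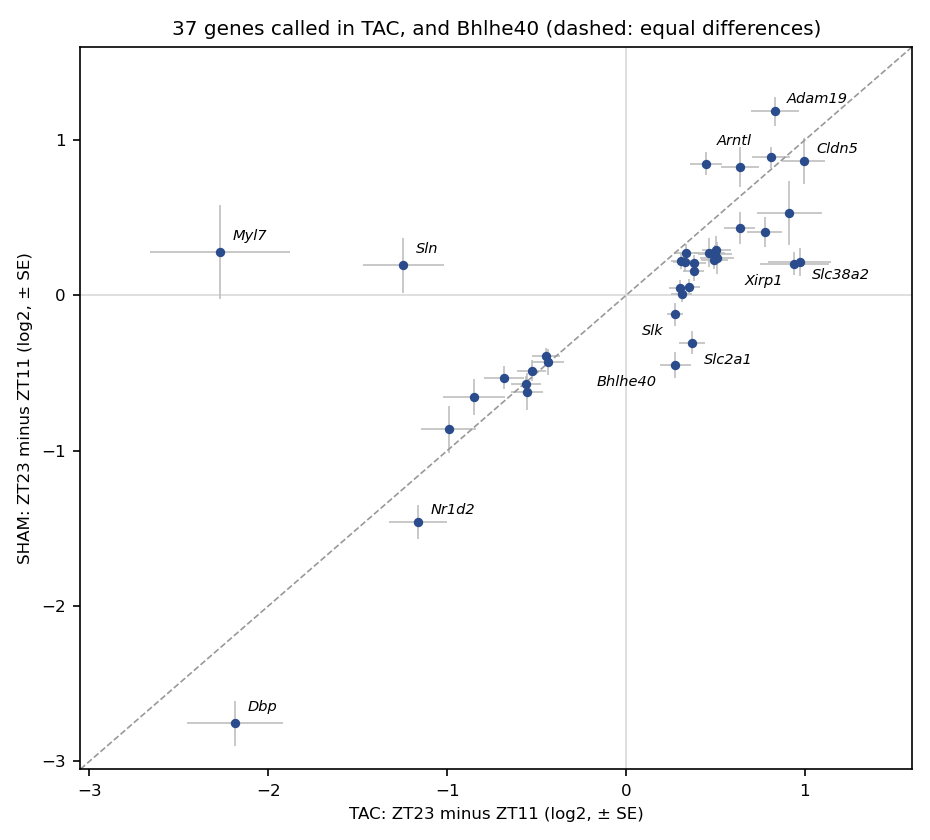
ZT23 minus ZT11 in SHAM hearts against the same difference in TAC hearts (log2, error bars SE), for the 37 genes called in TAC and Bhlhe40; the dashed line marks equal differences. Most genes share a sign, Slc2a1 and Bhlhe40 lie right of 0 in TAC and below 0 in SHAM, and Myl7 and Sln lie far left in TAC and near 0 in SHAM.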

How the data were processed

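The 36 arrays were Affymetrix mouse expression arrays of the left ventricle. Per the labels' protocols, the RNA came from snap-frozen hearts by Trizol extraction, and 6 ug of it was made into biotinylated cRNA. The table that the authors deposited holds 22690 probe sets on a log scale, read here as log2. How probes were summarised and normalized, and the log base, is not given in the sources used here, and the number of arrays limits the precision. Each probe set was centred at a median of 0 within each surgery, so levels of TAC and SHAM were not compared.

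Samples were grouped by title. Gene names came from the platform annotation (20393 with 1 symbol, 13 of them controls and left out, 691 with several, 1606 not listed; 20351 of 20380 Entrez identifiers matched), and a gene's value was the mean over its probe sets, for 12393 genes. limma 3.58.1 in R 4.3.3 fitted 6 group means to the 18 TAC arrays, with empirical Bayes and no intensity trend, and tested ZT23 minus ZT11. The same was done in SHAM, and the difference between surgeries was tested with 12 group means over 36 arrays. The Benjamini-Hochberg adjustment ran over all genes, with a threshold of 0.05. With 3 against 3 mice, a permutation test of 1 gene cannot go below p = 0.1. The fit was also run on simulated data with independent noise for each gene. Those data held no transcripts of other tissues, so that run could not test their effect on the calls.

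Members, 45 gene lists and 23 marker lists were chosen with earlier results of these data known. Lists are described by counts and medians. Named genes were the 15 largest called differences per direction, all measured clock genes, up to 4 members of each list by p, up to 4 markers of lists that stood apart, the 10 smallest p for the difference between surgeries, and 6 genes fixed by name. Exceptions are stated, and 1 called gene is counted but not reported here. Alternatives were other scalings and summaries, empirical Bayes options, array weights, other spreads, covariates, a replicate block and left-out arrays.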

Additional observations from a re-analysis of the deposited data

Results flagged for a closer look

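Bhlhe40 and Slc2a1 differed between the surgeries by a test of the difference itself. For Bhlhe40, ZT23 minus ZT11 in TAC exceeded that in SHAM by 0.7237 on the log2 scale (limma, adjusted p = 0.0209), with 2 of 3 TAC hearts at ZT23 above all 3 at ZT11 and all 3 SHAM hearts at ZT23 below all 3 at ZT11. For Slc2a1 the excess was 0.6726 (limma, adjusted p = 0.00786), with 3 of 3 TAC hearts at ZT23 above and 3 of 3 SHAM hearts at ZT23 below those of ZT11. The groups hold 3 arrays each, too few for a test of single outlying samples.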

How the results depend on the processing

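The count of 37 genes (25 higher, 12 lower at ZT23) became 18 (11 and 7) with quantile normalization, 16 (9 and 7) with a minimum fold of 1.5, 8 (5 and 3) with the 6 arrays alone, 194 (130 and 64) with the spread of all 36 arrays, 2063 (896 and 1167) with array weights, whose fit gave a convergence warning, and 0 (0 and 0) with the atrial mean as a covariate. It became 56 (29 and 27) without the array with airway transcripts, 65 (35 and 30) without both TAC arrays that carried them, an alternative chosen after seeing the data, and 54 (33 and 21) over genes with an SD above the median, where fewer genes were tested. Leaving out 1 array gave 14 to 56 calls, 8 to 29 higher and 6 to 27 lower.

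The 8 clock calls became 4 with a minimum fold, 3 with the 6 arrays alone, 14 with the spread of 36 arrays, 17 with array weights, 13 without the airway array or both such arrays, 0 with the atrial covariate, and 6 to 13 with 1 array left out. The 17 called list members became 9, 10, 6, 51, 224, 28 and 0 with quantile normalization, a minimum fold, 6 arrays, 36 arrays, array weights, without both airway arrays and with the atrial covariate, 29 over genes with an SD above the median, and 9 to 25 with 1 array left out. The 204 SHAM calls became 394 with array weights, 44 with a minimum fold, 61 with 6 arrays and 108 to 185 with 1 array left out. The 2 differences between surgeries became 0 with quantile normalization or the probe set of largest SD, 798 with array weights, 5 without the airway and thymocyte arrays, and 0 to 7 with 1 array left out. The cause of these changes was not tested.

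Arrays with the same replicate number did not deviate together (correlations of -0.19, 0.031 and -0.058 in TAC and 0.096, -0.043 and 0.16 in SHAM), so the numbers were not treated as pairs. With the replicate block, 30 genes were called in TAC, 27 of the 37 among them, 221 in SHAM, and 3 for the difference. No called gene reversed its sign in the settings run. Among values for single genes, 4331 kept their side of the threshold, 298 lost a call and 233 gained one. A further 70 changed sign without a call in the main fit or in the setting at hand. The unknown log base limits every fold, and 3 mice per group limit which differences could be called.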

Other observations

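Without TAC ZT23 replicate 1, which carried airway transcripts, 29 genes passed that had not passed with all arrays, and these were named after their values were seen. Mylip, a ubiquitin ligase that degrades the LDL receptor, was lower at ZT23 by this fit, with a difference of -0.74 ± 0.10 (SE, limma adjusted p = 0.00267). Sult1a1, a sulfotransferase, differed by -0.98 ± 0.17 (SE, adjusted p = 0.0216) and Xdh, xanthine dehydrogenase of purine breakdown, by -0.84 ± 0.18 (SE, adjusted p = 0.0494). Trp53inp1, a stress-induced target of p53, differed by -0.50 ± 0.083 (SE, adjusted p = 0.0141) and Cd163, the haemoglobin scavenger receptor of macrophages, by -0.66 ± 0.14 (SE, adjusted p = 0.0428). Higher at ZT23 in the same fit were Slc25a36, a mitochondrial pyrimidine nucleotide carrier, at 0.75 ± 0.12 (SE, adjusted p = 0.0141), Azin1, an inhibitor of antizyme in polyamine synthesis, at 0.63 ± 0.13 (SE, adjusted p = 0.038), and Slmap, a membrane protein of muscle, at 0.52 ± 0.11 (SE, adjusted p = 0.0494). Each rests on 2 hearts at ZT23.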
